A study of Homo sapiens with 2 samples.

Results

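HSP90 is an abundant chaperone that folds and stabilizes signalling proteins, among them many kinases and steroid receptors, with the help of cochaperones. With earlier results of these data known, 10 genes of this machinery were chosen by name for the group described here. These were the cytosolic chaperones HSP90AA1 and HSP90AB1, the mitochondrial chaperone TRAP1, the HSP90 pseudogene HSP90AA4P, the cochaperones STIP1, FKBP4, AHSA1, PTGES3 and CHORDC1, and the adaptor protein CACYBP. Of the 10 genes, 9 were measured by a row of their own, among 22465 such genes on the array, and AHSA1 was not. AHSA1, the activator of the HSP90 ATPase, therefore has no value here.

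Values came from KYSE150, a culture line established from a human squamous carcinoma of the esophagus. The cells carried a lentiviral hairpin directed at lncRNA625, a long non-coding RNA (knockdown), or a scrambled hairpin, shscramble (control), in the same serum-supplemented medium, and infected cells were selected with puromycin per the study's methods. Clones were then screened for knockdown, so the knockdown cells may derive from few cells, and 1 sample label speaks of siRNA where the methods describe a hairpin. There was 1 Human Transcriptome Array 2.0 per group, so the values have no error, no test was made, and a difference is that between these 2 arrays. No row was tied to lncRNA625, so the knockdown itself was not checked. Of the squamous markers, KRT5 had a signal of 16.5 in control and 16.1 in knockdown cells, SOX2 had 7.87 and 8.40, KRT14 was near the signal limit at 5.63 on both, and 3 of the 6 had no row of their own. All 8 markers of leukocytes, fibroblasts, endothelium and columnar epithelium were dim: each stayed under the signal limit of 4.97 and had the same value on both arrays.

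HSP90 works as a dimer that closes around its client when it binds ATP. STIP1 holds HSP70 and HSP90 together while a client passes between them, FKBP4 binds the tail of HSP90 in steroid receptor complexes, and PTGES3, also called p23, keeps the closed ATP-bound state. In mammalian cells HSP90AA1 is the strongly stress-inducible cytosolic form and HSP90AB1 the more constant form. The heat shock factor HSF1 drives genes of this group through heat shock elements, which are repeats of GAA and TTC in alternating orientation.

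The stretches below are shown because they hold such repeats upstream of 3 members. All 3 were lower on the knockdown array, HSP90AB1 by less than 1.5-fold. STIP1, TRAP1 and PTGES3, whose windows held no such repeats, were lower as well, and CACYBP, also without them, was equal. Whether the repeats bear on the values was not tested. The stretches are RefSeq sequence of GRCh38.p14, 5′ to 3′ on the strand of the gene, with the GAA and TTC letters of each match in capitals. The HSP90AA1 stretch is chr14:102087100-102087152 on the minus strand, the HSP90AB1 stretch chr6:44247758-44247863 on the plus strand and the CHORDC1 stretch chr11:90223067-90223129 on the minus strand.
HSP90AA1: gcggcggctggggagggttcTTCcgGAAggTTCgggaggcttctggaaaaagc
HSP90AB1: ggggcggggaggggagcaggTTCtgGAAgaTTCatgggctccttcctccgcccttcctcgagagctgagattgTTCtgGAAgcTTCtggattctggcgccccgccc
CHORDC1: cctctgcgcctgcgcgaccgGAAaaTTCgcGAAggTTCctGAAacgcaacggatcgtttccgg

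The motif searched was GAA, TTC and GAA with NN, any 2 bases, between neighbours, and its reverse complement TTC, GAA and TTC with the same spacing, which covers both strands. It was searched in windows from 250 bases before to 50 bases after each listed transcript start. Of the 10 genes, 8 had such a window. HSP90AA1 held 1 match, from base -88 to -76 before 1 of its 2 listed starts. HSP90AB1 held 2 matches, from -165 to -153 and from -112 to -100, before 1 of its 3 listed starts. CHORDC1 has 1 listed start and held 3 matches that overlap each other, from -60 to -38. Over all 35116 windows, 172 held the motif, a share of 0.490%. In the windows of TRAP1, STIP1, AHSA1, PTGES3 and CACYBP these letters did not occur, and nothing follows from that about HSF1. The signal of an array row does not tell which of several starts was used.

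**Figure D1:**
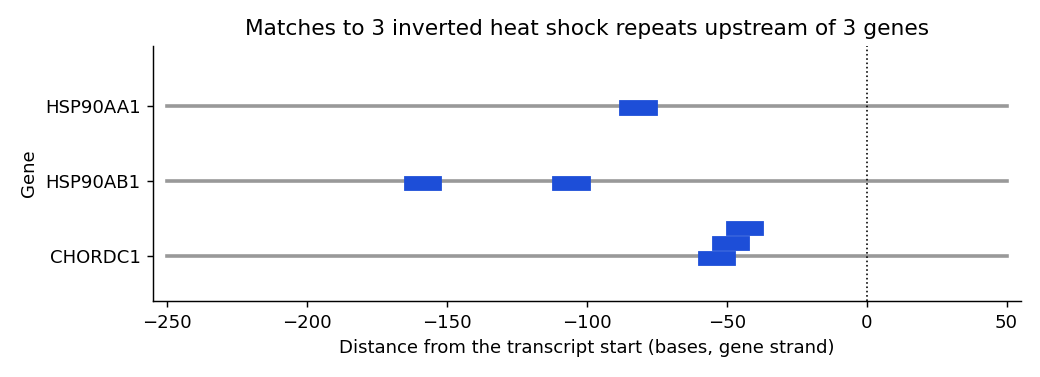
Positions of the matches to 3 inverted repeats (blue boxes) in the windows of HSP90AA1, HSP90AB1 and CHORDC1, in bases from the transcript start (dotted line at 0, negative upstream). Each match is 13 bases long, and the 3 boxes of CHORDC1 are stacked because they overlap.

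Of the 9 measured genes, 8 had a lower value on the knockdown array, 1 was equal on both arrays and 0 were higher. By more than 1.5-fold, the limit that the study's text uses, 4 of the 9 were lower and 0 higher. Over the 11323 genes past the signal limit, all 9 included, 0.477% were lower and 1.11% higher by more than 1.5-fold, and 12.1% were lower and 11.8% higher by any amount. By more than 2-fold, the limit of the study's methods, 1 of the 9 was lower, the pseudogene HSP90AA4P, against 0.0971% of all genes. The median difference of the 9 genes was -0.50 on the log2 scale, against 0 over all genes past the limit, 76% of which were exactly equal on both arrays. The genes of the group were chosen with earlier results of these data known, so these counts and medians only describe them. The values are RMA signals as deposited, in log2 units, so a fold holds on that scale only. Members nearest to the limit were STIP1 just past it, at -0.65, and HSP90AB1 just short of it, at -0.50. In bulk RNA, fewer cells that express a gene and less of its RNA per cell cannot be told apart.

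**Figure D2:**
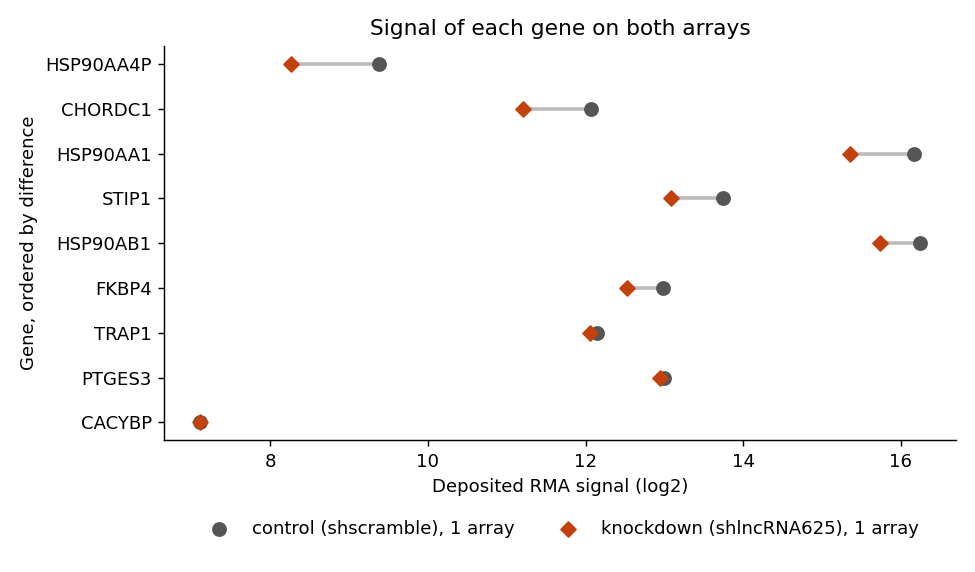
Deposited RMA signal (log2, x axis) of the 9 measured genes on the control array (grey circle) and the knockdown array (orange diamond), ordered by their difference. HSP90AA4P has the widest gap and CACYBP none, and in the 8 genes other than CACYBP the knockdown diamond lies to the left of the control circle.

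HSP90AA1, the stress-inducible cytosolic HSP90, had a signal of 16.17 in control and 15.35 in knockdown cells. Its log2 difference was -0.82, and the knockdown value was 56.8% of the control value on the linear scale. HSP90AB1, the constant form, had 16.24 and 15.74, a difference of -0.50, with the knockdown at 70.7% of the control. The difference of HSP90AA1 was thus the lower of the pair, by -0.32 on the log2 scale. Both forms are close in sequence and their rows may share probes, which was not tested. Both control values lay above 16, the highest log2 value of a 16-bit scanner, and no source used here explains such values. Among 91 genes whose mean of the 2 arrays reached 15, 2 genes had a difference at or below that of HSP90AB1, and these were HSP90AB1 and HSP90AA1. In this range 41.8% of the genes were equal on both arrays, 23.1% were lower and 35.2% were higher.

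TRAP1, the HSP90 of mitochondria, had 12.15 in control and 12.06 in knockdown cells. Its difference of -0.09 left the knockdown at 94.0% of the control. HSP90B1, the form of the endoplasmic reticulum, lay only in a row shared with a microRNA gene, from which no value was taken. The cytosolic forms thus had lower values by a wider margin than the mitochondrial form, and with 1 array per group the gap between them has no error.

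HSP90AA4P, a pseudogene of HSP90AA1, had 9.38 in control and 8.27 in knockdown cells. The difference of -1.11 was the lowest of the group, and the knockdown was at 46.3% of the control. It resembles HSP90AA1 in sequence, so the row may carry signal of HSP90AA1 transcripts, which was not tested. Without it, 3 of the other 8 genes were lower by more than 1.5-fold, and the median was -0.48. Of 12 other listed HSP90 pseudogenes, 2 were past the signal limit, and both were lower, beside 12.1% of all genes past it. HSP90AB3P had 11.66 and 11.29, a difference of -0.37, and HSP90AA6P had 7.05 and 6.67, a difference of -0.38. Their rows, too, may carry signal of HSP90 gene transcripts, which was not tested. HSP90AB2P, HSP90AB4P and HSP90B3P were below the signal limit and equal on both arrays, and 7 further pseudogenes of the list had no row of their own.

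CHORDC1, a cochaperone with zinc-binding CHORD domains that binds the ATPase end of HSP90, had 12.07 in control and 11.21 in knockdown cells. Its difference was -0.86, and the knockdown was at 55.2% of the control. Among all genes past the signal limit, 22 had a difference as low as that of CHORDC1 or lower, itself included, 25 as low as that of HSP90AA1, and 9 as low as that of HSP90AA4P. STIP1, the adaptor between HSP70 and HSP90, had 13.74 and 13.09, a difference of -0.65, with the knockdown at 63.6% of the control. FKBP4, a peptidyl-prolyl isomerase that acts in steroid receptor complexes, had 12.98 and 12.53. Its difference was -0.45, short of the limit, with the knockdown at 73.1% of the control.

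PTGES3, the p23 cochaperone, had 13.00 in control and 12.94 in knockdown cells, a difference of -0.06. CACYBP, a partner of S100 proteins and of the ubiquitin ligase SIAH1, had 7.11 on both arrays. Of the 1873 genes with a mean of 7 to 8, 80.2% were exactly equal on both arrays, so the equal values of CACYBP cannot be read as a measured equality. Among the measured cochaperones, CHORDC1, STIP1 and FKBP4 lay between -0.86 and -0.45 and PTGES3 at -0.06.

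Most of the group had strong signal. Of the 9 genes, 7 had a mean of at least 10, and 3 of these 7 were lower by more than 1.5-fold, against 1.07% of the 2244 genes of that range. In the same range 27% of genes were lower by any amount, against 19% higher. With a signal-dependent trend removed by loess, the differences of all 9 genes moved by at most 0.016.

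**Figure D3:**
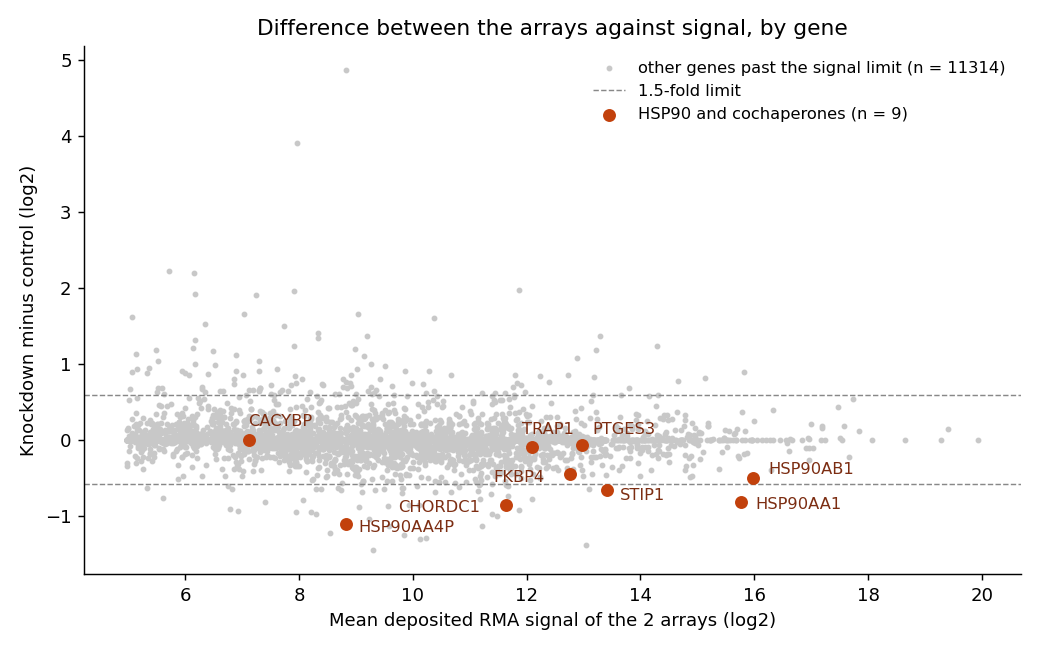
Difference between the arrays (knockdown minus control, log2) against the mean signal of the 2 arrays (log2) for the 11323 genes past the signal limit, with the 9 genes of the HSP90 group in orange and dashed lines at 1.5-fold. HSP90AA1 and HSP90AB1 lie at the lower edge of genes whose mean reached 15, and HSP90AA4P, CHORDC1, HSP90AA1 and STIP1 lie below the lower line.

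The wider HSP90 machinery was described by a list of its own. Of 34 further cochaperones and assembly factors, 26 were past the signal limit, and 5 of these were lower, 18 equal and 3 higher, with 0 past 1.5-fold in either direction and a median of 0. Of all genes past the limit 12.1% were lower, 76% equal and 0.477% lower by more than 1.5-fold, and nothing was read from the list's median or its count of 0. PPID, a cyclophilin that binds the same HSP90 tail as STIP1 and FKBP4, had 11.69 in control and 11.21 in knockdown cells, a difference of -0.48. TTI1, which acts with HSP90 in the maturation of large PI3K-like kinases, differed by -0.29, and TTC4, a cochaperone of HSP90 and HSP70, by -0.14. PIH1D1, of the R2TP assembly complex, differed by 0.11. FKBP5 and PPP5C, which use the same kind of tail-binding domain as FKBP4, were equal on both arrays at 7.96 and 8.82. They were chosen after their values were seen. CDC37, the adaptor for kinase clients, had no row of its own.

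Of 42 listed genes of HSP90 clients, 32 were past the signal limit, and 6 were lower, 25 equal and 1 higher, with 0 past 1.5-fold. Beside the 76% equal and 12.1% lower over all genes, nothing was read from these counts about the clients. PLK1 and AURKB, kinases of mitosis, differed by -0.21 and -0.19, HIF1A, a subunit of the hypoxia-inducible factor, by -0.15 and the kinase CHEK1 by -0.05. HSP90 acts on the proteins, which arrays do not measure.

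The chaperone families most alike differed in how many of their genes were lower. HSP70 and HSP110 had 11 genes past the signal limit, with 7 lower values, 4 equal and 0 higher and a median of -0.16. Of the 7, 4 passed 1.5-fold. Over all genes past the limit, 12.1% were lower and 0.477% lower by more than 1.5-fold. HSPH1, an exchange factor of HSP70, differed by -1.38, HSPA1A, whose sequence is nearly that of HSPA1B, by -1.23, HSPA4L by -1.04 and HSPA4 by -0.64. Of 12 DNAJ genes of classes A and B, which feed clients to HSP70, 10 were equal and 2 lower. DNAJA1 differed by -0.97, past the 1.5-fold limit, and DNAJB1 by -0.48, short of it. Beside the shares over all genes, nothing was read from the DNAJ counts of lower and equal genes. All 9 measured chaperonin subunits, which fold actin and tubulin in the cytosol or proteins of mitochondria, were lower, but 0 by more than 1.5-fold. CCT6A was at -0.48, CCT2 at -0.39, CCT3 at -0.37 and CCT4 at -0.33, and the median was -0.18. Most of these subunits had a mean of at least 10, a range in which 27% of genes were lower. The HSP90 median of -0.50 was below each of these medians, but the wider HSP90 machinery, kept in a list of its own, had a median of 0. The lowest single difference was that of HSPH1, at -1.38, against -1.11 for HSP90AA4P. By more than 2-fold, 3 HSP70 and HSP110 genes and 1 HSP90 member, the pseudogene HSP90AA4P, were lower. The lists were chosen with earlier results of these data known, and the differences between families were not tested.

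**Figure D4:**
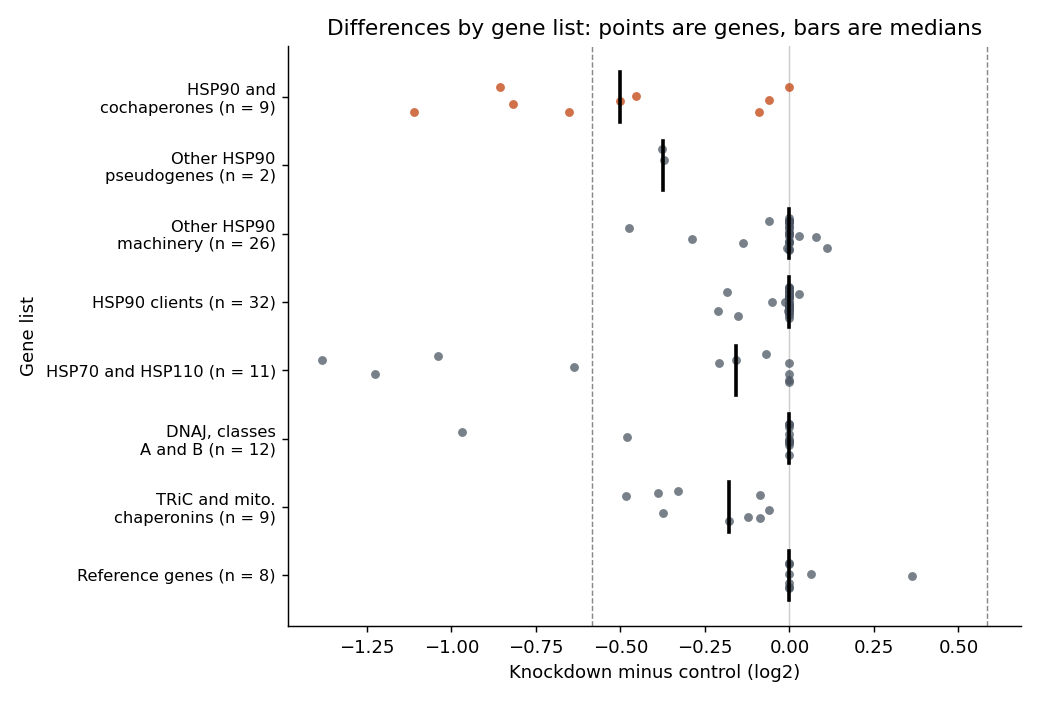
Difference between the arrays (knockdown minus control, log2, x axis) for each gene past the signal limit, by gene list, with the list medians as black bars and dashed lines at 1.5-fold. The HSP90 group (orange) has a median of -0.50, the other HSP90 machinery, the clients, the DNAJ genes and the reference genes have medians of 0, and the 9 chaperonin genes all lie left of 0.

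Further heat shock genes lay outside these families. HSF1 itself, the factor that drives them, was at 6.57 on both arrays. With 76% of all genes past the limit equal, this tie cannot be read as a measured equality. Of 12 genes of this list past the limit, 3 were lower, 8 equal and 1 higher, beside 12.1% lower, 76% equal and 11.8% higher over all genes, with the HSP70 cochaperone BAG3 at -0.21, MRPL18 at -0.14, ZFAND2A at -0.03 and the small heat shock protein HSPB1 at 0.07. ACTB, GAPDH and 4 more of the 8 reference genes had equal values, while PGK1 differed by 0.36 and GUSB by 0.06. Beside the 76% equal over all genes, nothing was read from these equal values about how well the arrays match.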

How the data were processed

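Biotin-labelled targets amplified from total RNA of both cell populations, cDNA per the labels and cRNA per the study's methods, were measured on Affymetrix Human Transcriptome Array 2.0 chips. The authors deposited log2 values from RMA (version not given), which corrects background, normalizes between arrays and summarises probes. Differences are knockdown minus control. Rows with exactly 1 gene symbol in the platform annotation, 23781 of 70523, were updated by gene ID to RefSeq of GRCh38.p14 (21497 matched), and the row with the highest mean represented a gene. Genes were kept where this mean reached the median of single-gene rows, 4.97. Promoter windows came from RefSeq. No test was possible with 1 array per group, and precision is limited by the number of arrays. The members and lists were chosen with earlier results of these data known. Named were all members and, in the other lists, the 4 genes with the largest absolute difference and any other past 1.5-fold. Outside this rule, HSF1, FKBP5, PPP5C, the cell markers, pseudogenes below the signal limit and some genes without a row of their own were named. So were listed genes whose windows held the repeats. Other settings tried were a 2-fold limit, 3 other signal filters, the average of a gene's rows, centring on medians, repeated quantile normalization and subtraction of a loess trend (span 0.3). Loess was run without robustness steps, a choice made after the data had been seen, since most differences are 0. Leaving out HSP90AA4P was also chosen then. Python 3.11.15, pandas 2.3.3, NumPy 2.4.6, statsmodels 0.14.6 and matplotlib 3.10.9 were used.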

Additional observations from a re-analysis of the deposited data

How the results depend on the processing

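No paired analysis was possible because each group held 1 array. Over the scaling and row alternatives, the difference of HSP90AA1 ranged from -0.83 to -0.79, that of CHORDC1 from -0.87 to -0.84 and that of STIP1 from -0.67 to -0.65, and 4 members were lower by more than 1.5-fold under each of these and under each filter. With the 2-fold limit 1 member, HSP90AA4P, was lower, against 0.0971% of all genes, with 3 HSP70 and HSP110 genes and 0 DNAJ genes, while HSP90AA1, CHORDC1 and STIP1 kept their differences of -0.82, -0.86 and -0.65 and were no longer past the limit. The share of all genes lower by more than 1.5-fold was 0.249% with no filter and 0.819% at a filter on the 75th percentile. This share differed with signal. It was 0.107% of genes with a mean of 7 to 8 and 1.07% of genes with a mean of at least 10. The HSP70 median was -0.054 without a filter. Median centring moved the medians of the other HSP90 machinery, the clients and the DNAJ genes from 0 to -0.0096. A second quantile normalization moved them to -0.0071, -0.0075 and -0.0044, and loess to -0.0082, -0.0084 and -0.0083. CACYBP was then lower by up to -0.016, so that 9 of 9 members were lower. A difference near 0 has no direction here.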

Other observations

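Genes whose promoter window held the repeats shown for HSP90AA1, HSP90AB1 and CHORDC1 were counted over the whole array, a count chosen after the data had been seen. Of 39 such genes past the signal limit, 6 were lower, 30 equal and 3 higher in the knockdown cells. The 1.5-fold limit was passed by 3 lower genes and 0 higher ones. These were DNAJA1, an HSP40 cochaperone, with -0.97, CHORDC1 with -0.86 and HSP90AA1 with -0.82. Of 8367 genes with a window and no such match, 43 were lower and 78 higher by more than 1.5-fold, and 1078 were lower, 6451 equal and 838 higher in all. With only the pair of GAA and TTC with NN between them asked for, 7 of 561 genes were lower and 9 higher by more than 1.5-fold. Without the HSP90 group, 36 genes with the repeats were left, of which 3 were lower, 30 equal and 3 higher. Lower by any amount were thus 8.33% of them, against 12.9% of the genes with no match. By more than 1.5-fold, 1 of the 36 was lower, a share of 2.78% that rests on 1 gene, against 0.514% of the genes with no match. Elsewhere in the chaperone lists the repeats stood in the windows of HSPD1, with a difference of -0.18, of DNAJB6 and SERPINH1, both equal on the arrays, of HSPA8, which had no row of its own, and of HSPA6, which was below the signal limit at 4.91 on both arrays.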
